A study of Mus musculus with 10 samples.

Results

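The settled upper-layer neurons of the E16.5 mouse cortex described here were 4919 of the 65779 cells that held at least 1000 UMIs (unique molecular identifiers, counted RNA molecules) and at most 10% mitochondrial UMIs. They were chosen by their own transcripts. A cell needed UMIs of at least 4 of the 6 genes Cdh12, Hs6st2, Itpr1, Limch1, Dok5 and Rbm24, and of fewer than 4 of the 6 genes Unc5d, Pdzrn3, Sema3c, Rnd2, Sstr2 and Nrp1. It could hold no UMI of Fezf2 or Inhba and at most 1 UMI of Dlx1, Dlx2 and Dlx5 together. The cortex of 10 embryos was sequenced with 10x 3′ version 3 chemistry, 1 library per embryo, to ask how loss of Gatad2b alters cortical development. There were 3 embryos without the mutant allele (WT), 4 Gatad2b stop/+ embryos (Het) and 3 Gatad2b stop/stop embryos (KO). The stop allele, Gatad2b tm1a(EUCOMM)Hmgu on a C57BL/6N-A tm1Brd background, is a gene-trap cassette in an intron, carried by all cells of the embryo. Its later exons are retained, so that 3′ UMIs of Gatad2b need not vanish in KO.

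Upper-layer neurons are born from Eomes-positive intermediate progenitors, leave the subventricular zone, pass as Unc5d-positive migrating cells through the intermediate zone and settle above the older deep-layer neurons. Once settled they extend axons, many of them through the corpus callosum to the other hemisphere. Bcl11b (also called Ctip2) is a transcription factor of subcerebral neurons of layer V. Gatad2b is a scaffold subunit of NuRD, a complex that joins histone deacetylases (Hdac1, Hdac2) to a nucleosome remodeler (Chd3, Chd4 or Chd5).

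The label was checked with marker genes that the rule did not use, after every cell had been thinned at random to 8000 UMIs. Of the 4681 settled neurons deep enough, 97.8% had a UMI of Neurod6 and 97.4% of Neurod2, which mark cortical glutamatergic neurons. Mef2c was found in 94.1%, Bhlhe22 in 91.5%, Pou3f3 in 90.5%, Cux1 in 77.2%, Cux2 in 50.8% and Rorb in 20.7%, all of them genes commonly used for upper layers. The same genes were counted in 3143 cells that met the rule but for a UMI of Fezf2, a factor of subcerebral neurons. There Cux1 was found in 32.6% and Cux2 in 15.5%, well below the settled neurons. Mef2c (88.5%), Bhlhe22 (85.4%) and Pou3f3 (83.3%) were nearly as frequent in the Fezf2 cells, and Rorb (28.9%) was more frequent. The deep-layer genes Tle4 and Foxp2 were found in 11.8% and 2.95%, but Ldb2 in 28.3%, Bcl11b in 36.3%, Sox5 in 47.3% and Tbr1 in 47.2%. A sign of other cell classes was rare, with Gad1 of interneurons in 1.30%, Eomes of intermediate progenitors in 1.17% and Sox2 of radial glia in 4.55%. Erythroid cells, which should lack neuronal genes, gave a background of 13.3% for Neurod6, 9.56% for Bcl11b, 12.6% for Mef2c and 1.57% for Gad1. The Gad1 share was therefore at the level of background, and the Mef2c share was far above its own. Cux1 and Cux2 thus set the settled neurons apart from the Fezf2 cells and Mef2c, Bhlhe22, Pou3f3 and Rorb did not, and a part of the settled neurons carried Bcl11b, Sox5, Tbr1 or Ldb2. That part differed by genotype, with WT and KO means of 29.6% and 67.7% for Bcl11b, 42.2% and 69.4% for Sox5, 43.7% and 63.1% for Tbr1, and 26.2% and 35.7% for Ldb2. The Fezf2 cells, pooled over all genotypes, had 63.2%, 70.5%, 46.4% and 49.2%. By embryo these ran from 46.2% to 87.9%, 52.4% to 91.3%, 31.6% to 59.8% and 44.4% to 59.4%. The pooled values are not matched by genotype to the WT and KO means. Cux1 and Cux2 had KO means of 78.6% and 46.6% in the settled neurons. In 3124 cells that met the rule but for a UMI of Inhba, Cux1 was found in 88.7% and Cux2 in 52.9%. Both were thus at least as frequent there as in the settled neurons. Bcl11b was found in 21.0% of the Inhba cells, with 13.3% to 48.9% by embryo.

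**Figure D1:**
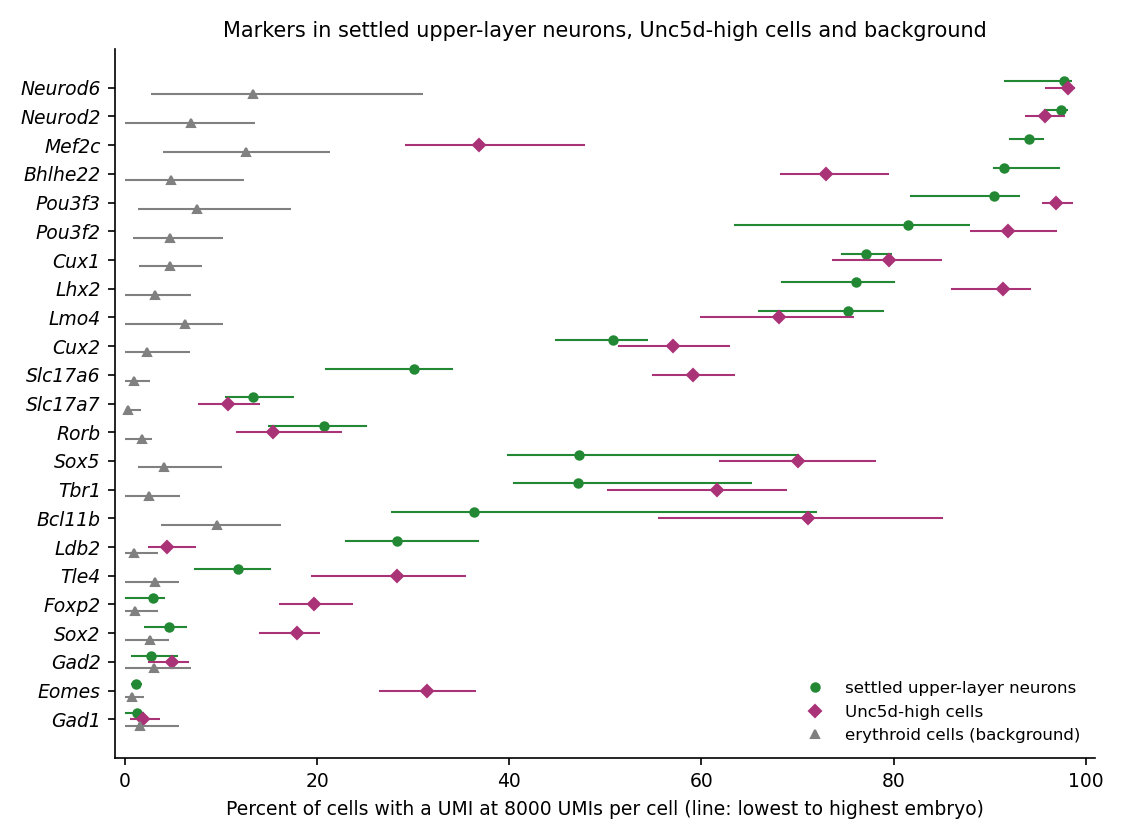
Percent of cells with a UMI of each gene after thinning to 8000 UMIs per cell, in settled upper-layer neurons, Unc5d-high cells and erythroid cells; symbols pool the 10 embryos and lines run from the lowest to the highest embryo. Mef2c (94.1% against 36.8%) separates the settled neurons from the Unc5d-high cells, and the Bcl11b line of the settled neurons is long.

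Unc5d-high cells served as the comparison throughout. They were the 3659 cells with at least 4 of Unc5d, Pdzrn3, Sema3c, Rnd2, Sstr2 and Nrp1, fewer than 4 of the 6 genes of the settled neurons, and the same limits on Fezf2, Inhba and the Dlx genes. Mef2c was found in 36.8% and Eomes in 31.4% of them, so that they lie nearer to the progenitors. In each embryo they were shallower than the settled neurons, with median UMIs of 10466 to 13769.5 against 15457 to 21475.5.

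The 6 genes that chose the settled neurons are described here without a test. Cdh12 (GRCm38 chr15:20449265-21589533, plus strand) encodes a cadherin, Hs6st2 (chrX:51387212-51681856, minus strand) a heparan sulfate 6-O-sulfotransferase, Itpr1 (chr6:108213096-108551109, plus strand) the inositol trisphosphate receptor of the endoplasmic reticulum, Limch1 (chr5:66745827-67057158, plus strand) an actomyosin regulator, Dok5 (chr2:170731807-170879769, plus strand) an adaptor of receptor tyrosine kinases and Rbm24 (chr13:46418434-46431095, plus strand) an RNA-binding protein. All 6 genes were detected in 28.0% to 31.5% of the settled neurons of a WT embryo, against 24.8% to 31.6% for a Het embryo and 12.3% to 21.2% for a KO embryo. Cells just inside the rule, with 4 of the 6, made up between 33.8% and 37.2% in WT, between 34.6% and 40.6% in Het, and between 46.2% and 50.6% in KO. Cells just outside it, with 3 of the 6 and otherwise alike, were between 3.21% and 3.73% of the kept cells in WT, between 2.20% and 3.35% in Het, and between 1.77% and 2.11% in KO. Their median depth was lower, at 12864 UMIs in WT against 15192 for cells with 4 genes. The rule also allows up to 3 of the 6 genes Unc5d, Pdzrn3, Sema3c, Rnd2, Sstr2 and Nrp1. Settled neurons with 3 of these were 425 of 2497 in WT, 404 of 1935 in Het and 156 of 487 in KO. The KO settled neurons thus sat closer to both edges of the rule than the WT ones, and the part of this in the results below was not tested.

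Settled neurons were 11.7%, 10.2% and 10.5% of the kept cells in the WT embryos (947, 731 and 819 cells). In the Het embryos they were 8.71%, 8.78%, 7.68% and 5.75% (509, 540, 431 and 455 cells), and in the KO embryos 2.86%, 3.03% and 2.64% (168, 156 and 163 cells). No 2 genotypes overlapped, and Het replicate 4 was the lowest Het embryo. The mean was 10.8% ± 0.784 (SD, n = 3) in WT, 7.73% ± 1.41 (n = 4) in Het and 2.85% ± 0.197 (n = 3) in KO, and the WT mean was 3.79 times the KO mean. This is a description with no test, since fewer cells of this kind and a lower level of the 6 genes in each cell cannot be told apart. With Itpr1 taken out of the rule and 3 of the other 5 genes needed, the WT mean was 12.7% and the KO mean 3.98%, a ratio of 3.18. Unc5d-high cells were 4.55% ± 0.696 of the kept cells in WT, 5.54% ± 1.14 in Het and 7.05% ± 0.536 in KO, and settled neurons were 70.5% ± 1.93 of both states together in WT, 58.2% ± 3.92 in Het and 28.8% ± 1.54 in KO. A share of cells cannot tell fewer settled neurons from more cells of other kinds.

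**Figure D2:**
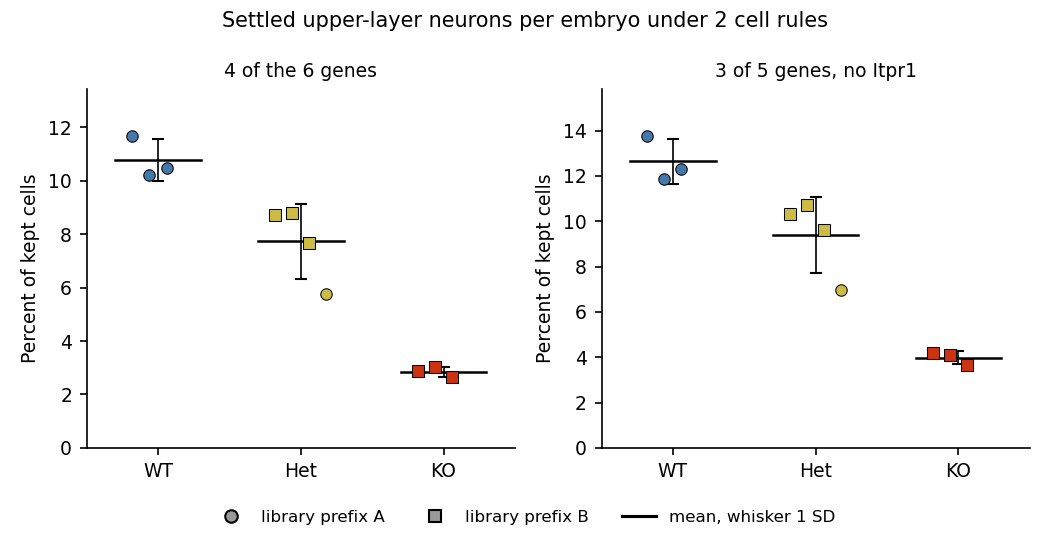
Settled upper-layer neurons as percent of the kept cells of each embryo, under the rule with 6 genes (left) and without Itpr1 (right); circles and squares are the 2 library prefixes, lines the genotype means and whiskers 1 SD. The KO embryos lie below all WT and Het embryos in each panel, at 2.64% to 3.03% in the left one.

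Kept cells per embryo numbered 5147 to 8103 and carried 82872641 to 123737385 UMIs, of which the settled neurons held between 13561978 and 15849787 (WT), 8746276 and 9805201 (Het), and 3250095 and 3768176 (KO). KO values therefore rest on fewer counts. The library names carry 1 of 2 prefixes whose meaning is not stated: the WT embryos and Het replicate 4 share one, and Het replicates 1 to 3 and the KO embryos share the other. Prefix and genotype cannot be told apart in KO vs WT, so the comparison of KO with Het replicates 1 to 3, which share a prefix, is given beside it. No pair of libraries shared more than 1 barcode among the settled neurons. Summed over 9 radial glia markers, the settled neurons of WT embryos had 237 to 306 CPM (UMIs scaled to a common library size with TMM factors), those of Het 145 to 429.04 and those of KO 271 to 526. The 6 erythroid markers ranged over 97.4 to 1167 CPM (WT), 35.2 to 3590.3 (Het) and 45.5 to 3353 (KO), and the 10 interneuron markers from 31.1 to 54.9, 18.6 to 34.3 and 14.3 to 27.4 CPM. The 6 intermediate progenitor markers ranged from 112 to 129, 120 to 207 and 149 to 196 CPM, the 6 Cajal-Retzius markers from 68.3 to 97.9, 15.3 to 169 and 3.38 to 235 CPM. Microglial (6), endothelial and mural (6) and choroid plexus (5) markers summed to at most 25.7, 83.9 and 19.7 CPM in any embryo. The part of these cells in the results was not tested.

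Gatad2b (GRCm38 chr3:90293178-90363407, plus strand) was measured first. It stood at 142, 142 and 141 TMM CPM in the WT embryos, 90.0, 90.7, 89.0 and 96.1 in Het and 45.6, 34.0 and 37.2 in KO. From here on, CPM are UMIs scaled to a common library size with TMM factors. The 3 genotypes did not overlap. In edgeR's quasi-likelihood test with Benjamini-Hochberg adjustment, KO was below WT with a log2 fold change of -1.86 ± 0.09 (here and below the error of a log2 fold change is its SE, adjusted p = 6.74e-08) and Het below WT with -0.63 ± 0.07 (adjusted p = 0.00208). A gene is called here when the adjusted p is under 0.05 and the absolute log2 fold change above 0.25. Of the other 14 NuRD subunits, 2 were called in KO vs WT, near the 15.7% of all genes. Chd4 (chr6:125095981-125130591, plus strand), a remodeler ATPase, was at 359, 329 and 351 in WT, 269, 293, 276 and 327 in Het and 241, 254 and 263 CPM in KO (log2 -0.46 ± 0.07, adjusted p = 0.00134). Hdac1, a deacetylase, was at 24.2, 26.5 and 25.8 in WT and 34.5, 39.3 and 27.8 in KO (log2 0.41 ± 0.10, adjusted p = 0.0127). The KO embryos lay below the WT embryos for Chd4 and above them for Hdac1, but neither passed in KO vs Het within one prefix (log2 -0.14 ± 0.06 and 0.29 ± 0.11, adjusted p = 0.276 and 0.188). Hdac1 missed the threshold without KO replicate 2 (adjusted p = 0.0660), and Chd4 when the rule was applied after thinning (log2 -0.19, adjusted p = 0.0521). Gatad2a, the paralog of Gatad2b, was at 52.7, 53.9 and 51.4 in WT and 62.9, 64.0 and 60.2 in KO, below the fold threshold at log2 0.24 ± 0.06.

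Within the settled neurons, 1031 of 12846 tested genes were higher and 981 lower in KO than in WT, so that 15.7% of all genes were called (8.03% higher, 7.64% lower). Genes of the rule, such as Itpr1 and Hs6st2, are included in these counts. They chose the cells, so their changes are not read as results. In 36.8% of the tested genes the KO and WT embryos did not overlap, and 1952 of the 2012 called genes were among them. In Het vs WT, 34 genes were higher (0.265%) and 56 lower (0.436%), or 0.701% of all genes. Genes called within one prefix, KO vs Het replicates 1 to 3, numbered 444 of 11903 (3.73%), 282 higher (2.37%) and 162 lower (1.36%). KO vs WT and Het vs WT share the WT embryos. At an unadjusted p under 0.05 stood 4064, 2022 and 2061 genes in these comparisons. The Het vs WT count rested strongly on Het replicate 4, without which it was 567, and on WT replicate 3, without which it was 14. KO vs Het gave 179 genes without KO replicate 3. The KO vs WT count fell to 1317 without WT replicate 1 and to 417 with the prefix as a covariate, a fit that joins KO to WT through Het replicate 4 alone.

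Most of the listed upper-layer identity genes were lower in KO than in WT, and several of the listed deep-layer genes were higher. These and the other gene lists were chosen with earlier results of these data known. Their counts beside the shares of all genes are therefore a description. Of 16 upper-layer and callosal genes, 10 were lower and none higher in KO than in WT (7.64% and 8.03% of all genes were), with a list median of log2 -0.31 beside -0.01 over all genes tested. The POU factor Pou3f2 (chr4:22482780-22488366, minus strand), which promotes upper-layer fate, was at 602, 513 and 541 CPM in WT, 516, 469, 418 and 485 in Het and 252, 327 and 275 in KO. Each KO embryo was below each WT and Het embryo (log2 -0.96 ± 0.10, adjusted p = 4.74e-05 against WT and log2 -0.72 ± 0.10, adjusted p = 0.00262 against Het of the same prefix). Nectin3 (chr16:46387706-46498525, minus strand), an adhesion molecule of upper-layer neurons, was at 59.1, 52.4 and 59.3 in WT, 43.5, 40.6, 41.4 and 34.6 in Het and 22.5, 25.3 and 20.4 CPM in KO. Its 3 genotypes did not overlap, and it was called in Het vs WT (log2 -0.51 ± 0.08, adjusted p = 0.00806), as was Mef2c. The KO change of Nectin3 was log2 -1.33 ± 0.11 (adjusted p = 7.25e-06). The LIM-only factor Lmo4, which is expressed in callosal neurons, was at 388, 492 and 485 in WT, 330.2, 399, 417 and 294 in Het and 243, 196 and 323 in KO (log2 -0.84 ± 0.16, adjusted p = 0.00434). KO lay below WT, but 1 KO embryo at 323 CPM lay within the range of Het, and KO vs Het missed the threshold (adjusted p = 0.0562). Among the others that fell were Ptn, Mef2c, Pou3f1, Plxna4, Pou3f3 and Ski. Cux1 and Cux2 were not called, at log2 -0.22 ± 0.06 and -0.15 ± 0.09. In KO vs Het within one prefix, 5 of the 16 genes were lower (Nectin3, Pou3f2, Pou3f1, Mef2c and Ski) and Rorb, a layer IV factor, was higher, beside 1.36% and 2.37% of all genes.

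Of 15 deep-layer genes, 5 were higher and 2 lower in KO than in WT, and in KO vs Het within one prefix the numbers were again 5 and 2, with Tshz2 in the place of Nr4a2. Of all genes, 8.03% were higher and 7.64% lower in KO than in WT, and 2.37% and 1.36% within one prefix. Several of these genes were also frequent in the Unc5d-high cells. At 8000 UMIs per cell, Bcl11b was found in 71.1%, Sox5 in 70.0% and Tbr1 in 61.6% of those cells, more than in the settled neurons, and Ldb2 in 4.39%, less than in them. Cux1 (79.6%) and Cux2 (57.1%) were at least as frequent in the Unc5d-high cells as in the settled neurons. Bcl11b (chr12:107910403-108003602, minus strand) was at 115, 155 and 113 CPM in the WT embryos, 143, 122, 181 and 193 in Het and 393, 338 and 472 in KO. The lowest KO embryo stood well above the highest of the other 7. The change was log2 1.65 ± 0.17 (adjusted p = 5.17e-05) against WT and 1.43 ± 0.14 (adjusted p = 0.000473) against Het, and Het against WT gave 0.32 ± 0.16, which did not pass (adjusted p = 0.344). Sox5 (chr6:143828425-144781977, minus strand), a SoxD factor that acts in corticofugal neurons, was at 103, 104 and 86.4 in WT, 108, 99.9, 104 and 156 in Het and 205, 231 and 221 in KO (log2 1.16 ± 0.14, adjusted p = 0.000164). Tbr1, a T-box factor of layer VI, was at 93.3, 104 and 78.3 in WT, 99.4, 105, 115 and 112 in Het and 181, 161 and 184 in KO (log2 0.93 ± 0.10, adjusted p = 5.39e-05). For both, the KO embryos were above all others, and Het replicate 4 was the highest Het embryo of Sox5. Nr4a2 and Ldb2 were the other 2 that rose. The 2 that fell were Crym, a thyroid hormone binding protein, and Foxp1, which is found in several layers. Crym was at 8.56, 23.7 and 21.0 in WT and 6.63, 3.12 and 4.13 CPM in KO, a call that was lost without KO replicate 2 or 3 (adjusted p up to 0.0721).

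Counted per cell, Bcl11b was found in more settled neurons of KO. At 8000 UMIs per cell, 27.7%, 31.5% and 29.7% of the settled neurons of the WT embryos had a Bcl11b UMI. The Het shares were 34.5%, 34.3%, 35.7% and 43.9%, and the KO shares 67.1%, 63.8% and 72.1%. The 3 genotypes did not overlap at this depth, and all shares lay above the erythroid background of 9.56%. Lmo4 UMIs were found in 75.8%, 79.0% and 78.8% of the cells in WT and in 65.9%, 69.7% and 70.1% in KO, so that at this depth every KO embryo was below every WT embryo. The difference between the KO and WT means was 38.0 percentage points for Bcl11b and -9.31 for Lmo4, each with p = 0.1 (adjusted p = 0.133) in a two-sided exact permutation test, the smallest p that 3 embryos against 3 allow. Het against WT gave 7.46 points for Bcl11b and -4.05 for Lmo4 (exact permutation p = 0.0571 for each, the smallest that 4 against 3 allow). Against Het replicates 1 to 3 the KO shares differed by 32.8 points for Bcl11b and -6.60 for Lmo4 (exact permutation p = 0.1 for each). No share could reach an adjusted p under 0.05 with this number of embryos. Without thinning, Bcl11b was found in 38.3% to 44.2% of the cells in WT and 81.5% to 87.1% in KO. The Het shares, 43.7% to 58.7%, then overlapped those of WT, as they did at 4000 UMIs per cell (22.6% to 31.0% in Het and 20.5% to 23.7% in WT), with Het minus WT at 8.38 and 5.14 points (exact permutation p = 0.114 for each). The Lmo4 difference depended on the depth and on the rule. At 4000 UMIs per cell, KO minus WT was -14.1 points (exact permutation p = 0.1). Without thinning, Lmo4 was found in 83.3% to 87.8% of the cells in WT and 84.0% to 86.3% in KO, which overlap (difference -0.47 points, exact permutation p = 0.9). Unthinned cells differ in depth, with median UMIs of 15457 to 19340 in WT and 18701 to 21475.5 in KO embryos. With at least 5 of the 6 genes needed the Lmo4 embryos overlapped too (difference -2.82 points, exact permutation p = 0.4).

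**Figure D3:**
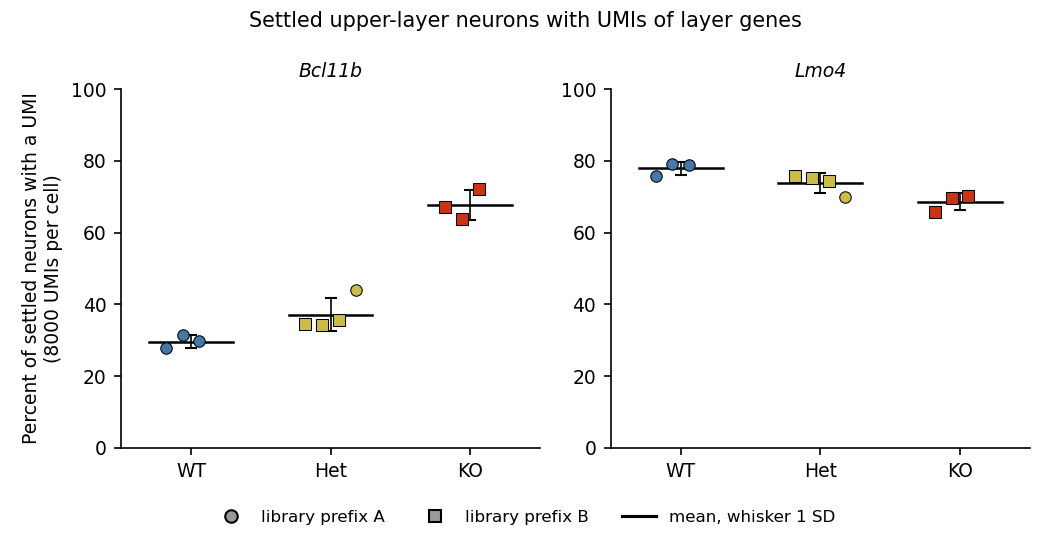
Percent of settled upper-layer neurons of each embryo with a UMI of Bcl11b and of Lmo4, at 8000 UMIs per cell; circles and squares are the 2 library prefixes, lines means and whiskers 1 SD. Bcl11b separates KO from WT and Het, with WT at 27.7% to 31.5% and KO at 63.8% to 72.1%.

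Nuclear factor I genes, which act in glial and neuronal differentiation, moved in different directions. Nfix (chr8:84699876-84800344, minus strand) was at 1636, 1419 and 1658 CPM in WT, 1328, 1437, 1219 and 1252 in Het and 612, 885 and 664 in KO (log2 -1.13 ± 0.11, adjusted p = 3.98e-05). Nfib was at 1318, 1233 and 1205 in WT, 1473, 1412, 1298 and 1547 in Het and 1702, 1998 and 1849 in KO (log2 0.56 ± 0.07, adjusted p = 0.000166). The KO embryos lay below all others for Nfix and above all others for Nfib, and both genes passed against Het of the same prefix (adjusted p = 0.00167 and 0.00605). Nfia was called higher in KO vs WT, at log2 0.41 ± 0.12, but the change was -0.01 ± 0.08 within one prefix, and leaving out any WT embryo or KO replicate 2 or 3 ended the call (adjusted p up to 0.112). Het replicate 4, with 172 CPM of Nfia, stood with the WT embryos at 189, 179 and 171 and apart from the other Het embryos at 236, 265 and 220.4. Nfic was not called.

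Of 17 genes of migration and early differentiation, 2 rose and 4 fell in KO vs WT, beside 8.03% higher and 7.64% lower of all genes. Neurod1, a bHLH factor of young neurons, was at 63.8, 92.3 and 58.1 CPM in WT, 78.4, 79.8, 78.8 and 103 in Het and 185, 171 and 142 in KO (log2 1.22 ± 0.16, adjusted p = 0.000300, and 1.07 ± 0.09, adjusted p = 0.000143, within one prefix). Sox11, a SoxC factor of newborn neurons, was at 3975, 3798 and 3770.3 in WT and 4567, 5319 and 4692 in KO (log2 0.34 ± 0.05, adjusted p = 0.000677). Vldlr, a receptor of the migration signal Reelin, was at 60.2, 54.2 and 55.8 in WT, 49.8, 45.6, 47.3 and 47.5 in Het and 37.9, 32.8 and 35.1 in KO (log2 -0.68 ± 0.07, adjusted p = 5.55e-05). KO and WT did not overlap for these 3 genes. Dab1, which carries the Reelin signal inside the cell, Rapgef1 and Cdkn1b were the others that fell. Rapgef1 did not pass without KO replicate 2 or WT replicate 1 (adjusted p up to 0.0907), and its change was -0.04 with the rule applied after thinning (adjusted p = 0.786) and -0.29 with 5 of the 6 genes needed (adjusted p = 0.126). Within one prefix, Neurod1 was the gene of the list that rose and Vldlr the gene that fell.

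The largest increases in KO among genes with at least 20 CPM in the higher group included Rwdd3, Cdkn1a and Hrk. Rwdd3, a sumoylation enhancer, was at 12.4, 15.9 and 14.3 CPM in WT, 15.9, 16.3, 26.7 and 22.1 in Het and 71.9, 50.6 and 79.1 in KO (log2 2.25 ± 0.19, adjusted p = 1.09e-05). Cdkn1a, the cell cycle inhibitor p21, was at 4.72, 5.25 and 6.04 in WT and 33.2, 12.8 and 22.4 in KO (log2 2.11 ± 0.27, adjusted p = 0.000206). Hrk, a BH3-only activator of neuronal apoptosis, was at 7.42, 10.2 and 10.8 in WT and 31.6, 20.3 and 37.8 in KO (log2 1.67 ± 0.24, adjusted p = 0.000538). All 3 were above every WT and Het embryo in every KO embryo, and each was called against Het of the same prefix (adjusted p = 0.000809, 0.0137 and 0.0370). Also among the 10 were Npas3, a bHLH-PAS factor (12.1, 18.3 and 14.7 in WT, 69.2, 30.9 and 70.6 in KO), the protein kinase Prkcd (7.36, 7.61 and 6.41 and 22.8, 21.5 and 21.6), Lypd6, a modulator of nicotinic receptors (8.62, 8.96 and 7.94 and 22.8, 26.9 and 26.9), and Cntnap2, a neurexin-family adhesion molecule (13.3, 16.6 and 14.5 and 54.4, 27.8 and 44.3). Bcl11b was also among them. The remaining pair were Fos, treated with the immediate early genes, and Hist1h1b, a replication-dependent linker histone at 9.63, 9.29 and 4.30 in WT, 6.18, 22.1, 17.1 and 19.0 in Het and 17.5, 48.1 and 43.4 CPM in KO. Hist1h1b was called at log2 2.20 ± 0.43 (adjusted p = 0.00405), yet its KO and Het embryos overlapped, and with the rule applied after thinning its change was -0.59 (adjusted p = 0.705). Mki67 and Vim, 2 of 9 radial glia markers, were also called higher in KO vs WT, and Slc1a3 lower, beside 8.03% and 7.64% of all genes. Gadd45g, 1 of 6 intermediate progenitor markers, was called higher, and Gad2, 1 of 9 interneuron markers tested, lower.

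The largest decreases included Npy, Mical2 and Ccbe1. Npy, a neuropeptide, was at 41.2, 42.1 and 52.7 CPM in WT, 16.1, 14.9, 33.8 and 10.9 in Het and 1.06, 1.25 and 1.48 in KO (log2 -5.16 ± 0.58, adjusted p = 7.81e-05). Mical2, an actin oxidase, was at 21.3, 20.7 and 23.9 in WT, 7.14, 10.8, 8.80 and 4.13 in Het and 3.45, 2.50 and 2.36 in KO (log2 -2.97 ± 0.32, adjusted p = 6.61e-05). Ccbe1, a secreted factor, was at 28.8, 27.5 and 30.6 in WT, 13.1, 19.4, 15.2 and 12.6 in Het and 4.77, 4.996 and 3.25 in KO (log2 -2.73 ± 0.21, adjusted p = 4.74e-06). The 3 genotypes did not overlap for any of these genes, and Het lay between WT and KO each time. Tnr (tenascin-R, a matrix protein) stood at 37.6, 38.5 and 37.6 CPM in WT and 8.22, 5.62 and 10.9 in KO, Trpc4 (a cation channel) at 28.1, 25.7 and 30.4 and 5.04, 3.75 and 6.50, Lrrc4c (the netrin-G ligand NGL-1) at 24.7, 20.2 and 24.8 and 4.77, 3.75 and 7.09, Tspan18 (a tetraspanin) at 23.9, 20.5 and 27.0 and 5.04, 6.87 and 7.38, and Tenm3 (teneurin-3, an adhesion molecule that guides axons) at 166, 147 and 153 and 40.1, 43.7 and 43.4. Each of these 8 genes also passed in KO vs Het within one prefix (adjusted p up to 0.00703). The last pair of the 10 are genes of other cells. Ttr, a gene of the choroid plexus, was at 1666, 2.83 and 1.09 CPM in the WT embryos, at 0.213, 0.104, 0.107 and 0 in Het and at 0 in KO. Its call was lost without any Het or KO embryo (adjusted p up to 0.114), and held without WT replicate 1, the highest embryo (adjusted p = 0.0151). Apoe, a gene of glia and microglia, was at 13.7, 18.9 and 51.4 CPM in WT and 5.84, 3.43 and 9.75 in KO, a call that was lost without WT replicate 3, Het replicate 4 or any KO embryo (adjusted p up to 0.133).

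**Figure D4:**
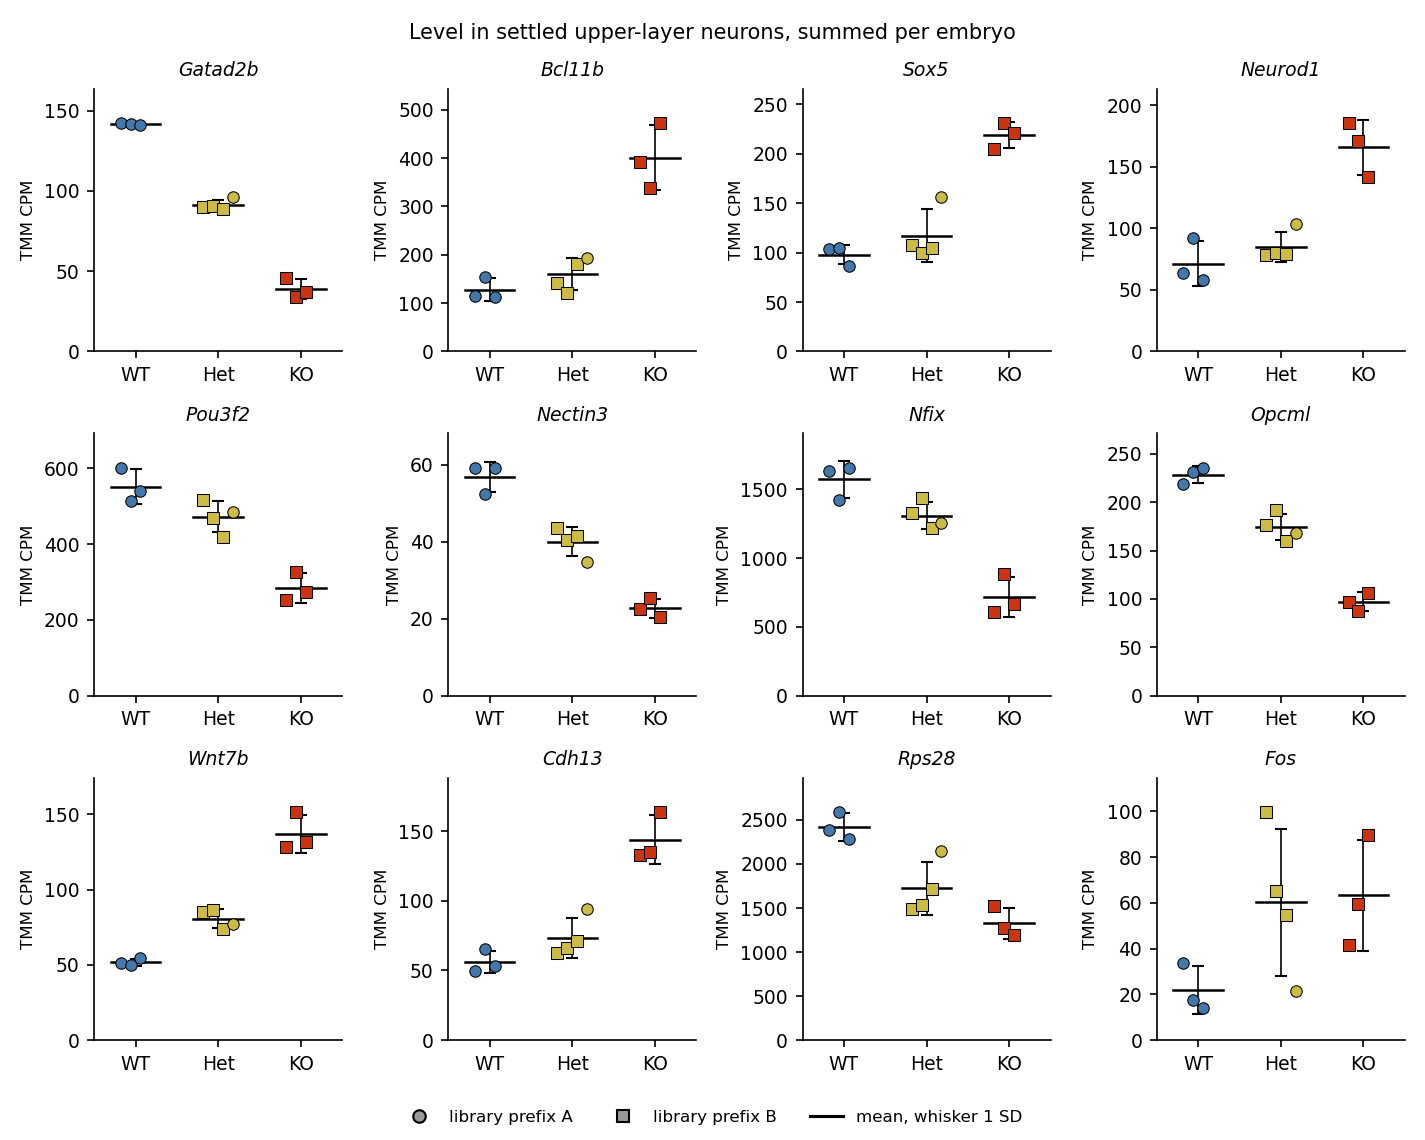
Level of 12 genes in the settled upper-layer neurons of each embryo, in TMM CPM from 0 on each axis; circles and squares are the 2 library prefixes, lines means and whiskers 1 SD. For Gatad2b, Nectin3, Opcml and Wnt7b the genotypes form 3 separate levels, whereas for Rps28 and Fos Het replicate 4 (circle) stands apart from the other Het embryos.

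In Het vs WT, with 0.701% of the genes called, the 5 named increases were those of Wnt7b, Nefl, Oma1, Shisa2 and Specc1. Wnt7b, a Wnt ligand made by cortical neurons, was at 51.2, 49.8 and 54.3 CPM in WT, 85.1, 86.5, 73.6 and 77.3 in Het and 128, 152 and 132 in KO, with log2 changes against WT of 0.64 ± 0.08 in Het (adjusted p = 0.00208) and 1.41 ± 0.08 in KO (adjusted p = 6.07e-07). Nefl, the light neurofilament chain, was at 104, 126 and 143 in WT, 201, 202, 217 and 205 in Het and 230.3, 274 and 249 in KO (Het log2 0.73 ± 0.09, adjusted p = 0.00297). Oma1, a mitochondrial protease, was at 25.7, 27.6 and 20.4 in WT, 48.9, 45.9, 39.0 and 51.8 in Het and 42.4, 67.8 and 48.7 in KO (Het log2 0.91 ± 0.13, adjusted p = 0.00711). Wnt7b and Nefl formed 3 levels by genotype, and the Het and KO embryos of Oma1 overlapped. Shisa2 and Specc1 had Het changes of log2 0.61 ± 0.10 and 0.72 ± 0.10. These 5 increases all lost their call with the prefix as a covariate, a fit in which Het replicate 4 alone shares the prefix of WT (adjusted p = 0.0661 for Oma1, 0.0838 for Nefl, 0.0864 for Wnt7b, 0.131 for Shisa2 and 0.253 for Specc1). Their log2 changes in that fit were 1.07 for Oma1, 0.72 for Nefl, 0.58 for Wnt7b, 0.69 for Shisa2 and 0.59 for Specc1, near those without the covariate. The call of Shisa2 was lost without Het replicate 1 or WT replicate 2 or 3 (adjusted p up to 0.0901), and that of Oma1 without WT replicate 3 (0.0614). That of Nefl was lost with at least 5 of the 6 genes needed (log2 0.61, adjusted p = 0.0772). The 5 named decreases were Mical2, Npy, Ccbe1, Dtx4 and Tnr, and Dtx4, a regulator of Notch signalling, was at 37.6, 40.5 and 36.8 in WT, 22.9, 22.6, 21.7 and 20.3 in Het and 14.1, 11.6 and 14.8 in KO (Het log2 -0.81 ± 0.07, adjusted p = 0.000226). Of these, Npy held least well, since leaving out any of 7 embryos ended its Het call (adjusted p up to 0.192), as did the prefix as a covariate (adjusted p = 0.0820). The Npy call was also lost with 5 of the 6 genes needed (adjusted p = 0.0728), with doublets removed (0.0806) and with only the 2 groups fitted (0.0664). It was lost too at no more than 5% mitochondrial UMIs (log2 -0.84, adjusted p = 0.237) and with the rule applied after thinning (log2 -0.73, adjusted p = 0.275).

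Adhesion genes moved in both directions in KO vs WT. Of 31 synaptic adhesion genes, 3 were higher and 6 lower, and of 22 cadherins and protocadherins 4 were higher and 3 lower (all genes 8.03% and 7.64%). Opcml, a GPI-anchored IgLON protein, was at 218, 231 and 236 CPM in WT, 176, 191, 159.8 and 169 in Het and 97.1, 87.1 and 107 in KO (log2 -1.23 ± 0.08, adjusted p = 1.76e-06). Its genotypes did not overlap, and Het vs WT was called (log2 -0.39 ± 0.07, adjusted p = 0.0335), as it was for Lrrc4c and Slitrk1. Cdh13 (T-cadherin) was at 49.8, 65.2 and 53.4 in WT, 62.2, 66.1, 71.4 and 94.5 in Het and 133, 135 and 164 in KO (log2 1.36 ± 0.15, adjusted p = 6.12e-05). Cdh4 (R-cadherin) was at 64.7, 72.9 and 61.7 in WT, 75.0, 67.0, 71.2 and 95.1 in Het and 141, 118 and 127 in KO (log2 0.95 ± 0.12, adjusted p = 0.000164). Pcdh7, a protocadherin, was at 74.7, 72.5 and 71.9 in WT, 67.9, 56.7, 77.4 and 60.3 in Het and 32.1, 33.4 and 47.8 in KO (log2 -0.95 ± 0.14, adjusted p = 0.000520). In these 3 genes the KO embryos stood apart from all WT and Het embryos, and each passed against Het of one prefix. Lrrtm4, a postsynaptic adhesion molecule at 3.08, 3.23 and 2.33 CPM in WT and 9.55, 7.49 and 6.79 in KO, was also called (log2 1.46 ± 0.28, adjusted p = 0.00352). With the rule applied after thinning neither Lrrtm4 nor Cntnap2 passed (log2 0.51 and 0.52, adjusted p = 0.305 and 0.119).

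Of 47 axon guidance genes tested of 51, 14 were higher and 8 lower in KO than in WT, where 8.03% and 7.64% of all genes were. Nrp2, a semaphorin receptor, was at 42.5, 79.7 and 62.1 CPM in WT, 58.0, 55.6, 87.3 and 94.7 in Het and 138, 84.0 and 167 in KO (log2 1.08 ± 0.27, adjusted p = 0.0145). The lowest KO embryo, at 84.0, lay within the Het range and just above the highest WT embryo, at 79.7. The call was lost without WT replicate 1 or KO replicate 1 or 3 (adjusted p up to 0.0731). Plexin genes Plxnd1 and Plxnc1 rose with 0.96 ± 0.23 and 0.89 ± 0.26, and each lost their call without KO replicate 1 or 3 or WT replicate 3, and Plxnc1 without WT replicate 1 also (adjusted p up to 0.0943 and 0.231). With the rule applied after thinning, Nrp2 (log2 0.68, adjusted p = 0.0647) and Plxnd1 (log2 0.50, adjusted p = 0.115) missed the threshold, and Plxnc1 missed it with 5 of the 6 genes needed (log2 0.55, adjusted p = 0.170). Epha4, a receptor of ephrins, was at 86.0, 86.9 and 98.9 in WT, 83.3, 75.5, 72.8 and 81.3 in Het and 50.1, 46.8 and 51.4 in KO (log2 -0.87 ± 0.08, adjusted p = 1.98e-05), and is named here beyond the fixed number of examples, after its values had been seen. Within one prefix 7 guidance genes were higher (Sema5b, Nrp2, Epha5, Neo1, Epha3, Efnb2 and Efnb1) and 3 lower (Efna5, Epha4 and Unc5c) of 44 tested, beside 2.37% and 1.36% of all genes.

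Receptor genes of fast transmission were lower or not called. Of 16 ionotropic glutamate receptor genes tested, 3 fell in KO vs WT (Grin2a, Grin1 and Gria2) and none rose, and of 11 GABA-A receptor genes 4 fell, among them Gabra5, Gabrb1 and Gabrg3, and none rose, beside 7.64% lower of all genes. Gabra5 was at 8.12, 9.83 and 12.9 in WT, 3.20, 3.94, 6.22 and 6.08 in Het and 3.45, 3.12 and 4.72 in KO (log2 -1.44 ± 0.31, adjusted p = 0.00769), and was called in Het too (log2 -1.08 ± 0.22, adjusted p = 0.0464). Its KO call was lost with Itpr1 taken out of the rule (log2 -0.51, adjusted p = 0.355) and at no more than 5% mitochondrial UMIs (log2 -0.995, adjusted p = 0.139). Grin1, the obligatory NMDA receptor subunit, was at 17.1, 19.2 and 18.3 in WT, 14.4, 15.8, 14.7 and 15.9 in Het and 13.5, 11.2 and 13.9 in KO (log2 -0.49 ± 0.11, adjusted p = 0.0104). In both genes the Het embryos lay below the WT embryos, and KO and Het overlapped for Gabra5. Grin1 missed the threshold at no more than 5% mitochondrial UMIs (log2 -0.37, adjusted p = 0.0960). The calls of Grin2a, Gria2, Gabrb1 and Gabrg3 were each lost without any of at least 4 embryos (adjusted p up to 0.121, 0.143, 0.136 and 0.0862). None of the 7 passed in KO vs Het within one prefix, where Gabra2 was the called GABA-A gene. Of 40 voltage-gated channel genes, 7 rose and 4 fell (8.03% and 7.64% of all genes did), with Scn1a (a sodium channel) at 15.2, 16.6 and 13.7 in WT and 28.1, 24.4 and 35.1 in KO (log2 0.95 ± 0.18, adjusted p = 0.00323) and Cacna2d3 (a calcium channel subunit) at 20.6, 18.0 and 22.7 and 9.28, 7.49 and 6.50 (log2 -1.39 ± 0.17, adjusted p = 0.000155). Both Scn1a and Cacna2d3 passed within one prefix.

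Because Hs6st2 was one of the genes that chose the cells, the other heparan sulfate genes were looked at as a list. Of 23 tested, 3 rose (Hs3st5, Gpc1 and Hs6st1) and 2 fell (Gpc2 and Gpc6) in KO vs WT, near the shares of 8.03% and 7.64% over all genes, and none was called in Het vs WT or in KO vs Het. Gpc1, a glypican core protein, was at 19.4, 18.4 and 18.3 CPM in WT and 23.1, 25.0 and 26.3 in KO (log2 0.40 ± 0.10, adjusted p = 0.0152). KO and WT did not overlap for Gpc1, but the call was lost without KO replicate 3 (adjusted p = 0.0596). The calls of Hs3st5, Gpc2 and Gpc6 were each lost without any of 5 or more embryos (adjusted p up to 0.190, 0.144 and 0.140). These 5 of 23 stand beside the 15.7% of all genes that were called.

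Ribosomal protein genes were lower or not called in KO vs WT. Of 79 cytosolic ribosomal protein genes, 21 were lower and none higher (all genes 7.64% and 8.03%), with list medians of log2 -0.11 for KO and 0.02 for Het against WT, and -0.14 for KO against Het of one prefix. Rps28 was at 2382, 2592 and 2283 CPM in WT, 1489, 1533, 1719 and 2147 in Het and 1527, 1270.2 and 1188 in KO (log2 -0.86 ± 0.12, adjusted p = 0.000442). Het replicate 4, at 2147, stood near the WT embryos that share its prefix, and within one prefix the change was -0.25 ± 0.09 (adjusted p = 0.158). Rpl35a alone of the list was called in KO vs Het. Immediate early genes, which respond to activity and to handling of the tissue, were higher in 6 of 17 cases, against 8.03% of all genes, and lower in none, with list medians of log2 0.35 for KO and 0.35 for Het against WT, and -0.21 for KO against Het of one prefix. Fos was at 33.7, 17.4 and 13.98 in WT, 99.8, 65.2, 54.5 and 21.7 in Het and 41.4, 59.3 and 89.5 in KO (log2 1.52 ± 0.47, adjusted p = 0.0410). Het replicate 4 was again with WT, at 21.7, no gene of the list was called in KO vs Het, and the Fos call was lost without any of 6 embryos (adjusted p up to 0.189). The median mitochondrial share of the settled neurons split the embryos in the same way, at 3.90% to 4.10% in WT and 3.71% in Het replicate 4, against 4.65% to 4.98% in Het replicates 1 to 3 and 4.47% to 4.94% in KO, and its part in the results was not tested. Dusp1 was the immediate early gene called in Het vs WT. Among 16 linker histones and histone variants 5 rose, with H3f3b, a replication-independent H3.3 gene, at 2492, 2412 and 2539.7 in WT, 3343, 3224, 2938 and 2779.9 in Het and 3185, 3642 and 3490.3 CPM in KO (log2 0.47 ± 0.07, adjusted p = 0.000426). H3f3b was also called in Het vs WT (adjusted p = 0.0433) but not in KO vs Het. Of 24 cytoskeleton and growth cone genes 7 rose and 2 fell, where the shares over all genes for these and for the histone genes are again 8.03% and 7.64%, and of these Stmn4, a microtubule regulator at 447, 475 and 438 in WT, 495, 461, 491 and 477 in Het and 615, 622 and 603 in KO, passed within one prefix (log2 0.35 ± 0.06, adjusted p = 0.00605) together with Map4. With the rule applied after thinning, the KO vs WT change of Stmn4 was 0.21 in place of 0.44 ± 0.05, under the fold threshold. Of 88 nuclear genes of oxidative phosphorylation, 4 rose and 6 fell, near the 15.7% called over all genes, with a list median of log2 0.02, and none was called within one prefix.

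The settled neurons were then set against the Unc5d-high cells of the same embryos. Over all 10 embryos, 320 of 12541 genes were at least 2 times higher in the settled neurons in every embryo and 247 at least 2 times higher in the Unc5d-high cells. These values describe 2 groups of cells that were chosen by their genes and carry no test. The ranking below covers the 5976 genes open to naming, with at least 20 CPM in the higher state of every embryo and the rule genes passed over. Furthest above were Nefl, with a median of 207 CPM in the settled neurons and 10.9 in the Unc5d-high cells, Lrfn5, a synaptic adhesion gene (146 and 8.23), Gucy1a1, a subunit of the nitric oxide receptor (151 and 7.91), and Ndrg1 (87.6 and 5.77). Mef2c, an activity-linked factor of upper-layer neurons, was at 1353 and 98.0. Nr4a2, Dync1i1, Nefm, Sla and Bend6 followed. Furthest below was Eomes, at 1.73 CPM in the settled neurons and 211 in the Unc5d-high cells, with Mfap4, Cdk6, Sema5a, Snhg18, Mfng, Abca1, Btbd17, Sox6 and Pax6 after it. Pax6 and Eomes are the defining factors of radial glia and of intermediate progenitors. The direction of these 20 genes was the same in each of the 10 embryos.

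The KO vs WT effects were then compared between the 2 states. In a fit of both states with the embryo as a block, the KO vs WT effect differed between settled neurons and Unc5d-high cells for 783 of 12541 genes (6.24%), with 440 (3.51%) more positive and 343 (2.74%) more negative in the settled neurons. Without KO replicate 3 the 783 genes fell to 417. Of the 750 with an effect fitted in each state, 478 had effects of opposite sign, 169 the same sign and a larger size in the settled neurons, and 103 the same sign and a smaller size. These genes were picked for a difference, and signs were counted whatever the size of the effect, so the numbers are a description. Genes of the rule, such as Itpr1, are included in these counts too. They helped to choose the cells of both states, so their differences are not read as results. For the Het vs WT effect, 4 genes differed after adjustment (0.0319%), 1 more positive (0.00797%) and 3 more negative (0.0239%). At an unadjusted p under 0.05 stood 2672 genes for KO and 817 for Het. Within the Unc5d-high cells alone, 814 genes (6.93%) were higher and 883 (7.52%) lower in KO than in WT (14.5% of 11739). 

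Lrrc4c, Tenm3 and Cxxc4 fell in the settled neurons. Lrrc4c changed by log2 -2.15 ± 0.18 in the settled neurons and by -0.05 ± 0.15 in the Unc5d-high cells (difference -2.103 ± 0.25, adjusted p = 8.86e-05). Tenm3 changed by -1.88 ± 0.15 and -0.35 ± 0.16 (difference -1.54 ± 0.24, adjusted p = 0.000783), and Cxxc4, an inhibitor of Wnt signalling, by -1.53 ± 0.33 and -0.11 ± 0.20 (difference -1.41 ± 0.20, adjusted p = 0.000403). In the Unc5d-high cells these 3 changes did not pass (adjusted p = 0.849, 0.147 and 0.763). Npy and Trpc4 fell in both states and further in the settled neurons (differences -2.44 ± 0.57 and -1.36 ± 0.32, adjusted p = 0.0146 and 0.0157). Either difference missed the threshold without some KO or WT embryos (adjusted p up to 0.0765 for Npy, without each KO embryo in turn, and 0.0655 for Trpc4, without KO replicate 2 or 3 or WT replicate 1). The Npy difference was -1.18 without Itpr1 in the rule (adjusted p = 0.173), and also missed the threshold with doublets removed (adjusted p = 0.0674), at no more than 5% mitochondrial UMIs (0.0910) and with 5 of the 6 genes needed (0.0833).

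Differences were ranked among genes open to naming, which were called and had a mean of at least 20 CPM in KO or WT settled neurons. Of these, the 5 largest in the other direction were those of Fxyd7, C1ql3, Slc1a2, Plppr4 and Cntnap2. Slc1a2, a glutamate transporter, was at 14.03, 20.4 and 17.5 CPM in WT and 36.9, 22.8 and 35.4 in KO settled neurons, a log2 change of 0.88 ± 0.21, and changed by -1.38 ± 0.22 in the Unc5d-high cells (difference 2.24 ± 0.25, adjusted p = 4.75e-05). Cntnap2 changed by 1.52 ± 0.23 and -0.60 ± 0.15 (difference 2.098 ± 0.25, adjusted p = 8.25e-05), and Plppr4, a plasticity-related membrane protein, by 0.83 ± 0.23 and -1.42 ± 0.42 (difference 2.22 ± 0.33, adjusted p = 0.000562). In these 3 genes the change was upward in the settled neurons and downward in the Unc5d-high cells, and in the main fit passed the adjusted p in each state. Fxyd7, a regulator of the sodium pump, and C1ql3, a secreted synaptic organizer, had differences of 3.22 ± 0.83 and 2.87 ± 0.61 (adjusted p = 0.0245 and 0.00770). Fxyd7 did not pass without KO replicate 1 or 3 or WT replicate 2 (adjusted p up to 0.236), and C1ql3 did not pass without WT replicate 2 (adjusted p = 0.0988). The Fxyd7 difference was also lost without Itpr1 in the rule (adjusted p = 0.0726) and with 5 of the 6 genes needed (1.80, adjusted p = 0.328). The rise of Slc1a2 in the settled neurons alone did not pass without KO replicate 1 or 3 (adjusted p up to 0.0686), that of Plppr4 without KO replicate 1 or 3 or WT replicate 1 or 3 (up to 0.114). When the rule was applied after thinning, the KO change in settled neurons was -0.02 for Slc1a2 and -0.23 for Fxyd7 (adjusted p = 0.958 and 0.8002). With that rule C1ql3 (log2 0.62, adjusted p = 0.183), Plppr4 (0.46, 0.0674) and Cntnap2 (0.52, 0.119) did not pass in settled neurons either. With 5 of the 6 genes needed, Plppr4 (0.45, adjusted p = 0.186) and C1ql3 (0.88, 0.0718) also missed the threshold. The difference of effects was not fitted with the thinned rule.

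**Figure D5:**
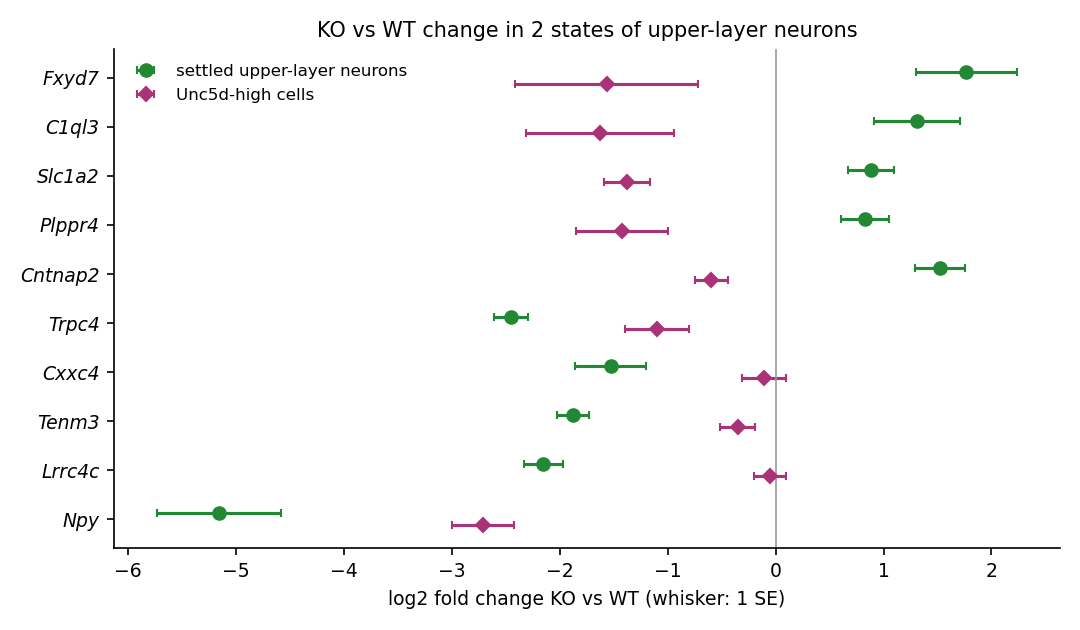
Log2 fold change KO vs WT (x axis, whiskers 1 SE) of the 5 genes with the most positive and the 5 with the most negative difference of effect among genes open to naming, in settled upper-layer neurons (circles) and Unc5d-high cells (diamonds). Open to naming were called genes with a mean of at least 20 CPM in KO or WT settled neurons. Slc1a2 lies at 0.88 and -1.38, on opposite sides of 0, and Lrrc4c at -2.15 and -0.05.

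By gene list, layer identity genes differed between the states as well. Of 16 upper-layer genes, 10 had a more negative KO effect in the settled neurons than in the Unc5d-high cells and 1, Rorb, a more positive one, beside 2.74% and 3.51% of all genes. Cux1 and Cux2 were among the 10, although neither was called within the settled neurons. Of 15 deep-layer genes, 7 had a more positive effect in the settled neurons (Etv1, Hs3st4, Ldb2, Tshz2, Bcl11b, Sox5 and Tbr1) and Foxp1 a more negative one, beside the same 3.51% and 2.74%. Bcl11b changed by log2 1.65 ± 0.17 in the settled neurons and by 0.89 ± 0.11 in the Unc5d-high cells (difference 0.74 ± 0.12, adjusted p = 0.00115). Gatad2b itself fell by more in the settled neurons, at -1.86 ± 0.09 against -1.24 ± 0.07 (difference -0.62 ± 0.10, adjusted p = 0.000993).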

How the data were processed

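Single-cell RNA-seq of the cortex of 10 embryos, 1 library each, was processed by the authors with Cell Ranger, version 6.0.2 per the file headers (the study's methods name an earlier release), against mm10. The deposited values are raw UMI counts per gene and barcode. Genes were matched to GENCODE vM21 for coordinates (31011 of 31053 IDs). Counts of the chosen cells were summed per embryo and tested with edgeR 4.0.16 in R 4.3.3 (quasi-likelihood test, TMM scaling, filterByExpr, Benjamini-Hochberg adjustment over all tested genes). KO vs WT and Het vs WT were fitted on all 10 embryos, KO vs Het on the 6 embryos of one library prefix. The difference of effects was an interaction of genotype and state with the embryo as a block. Shares of cells were taken after thinning to 8000 UMIs and compared by two-sided exact permutation tests in scipy 1.17.1, adjusted over 12 tests. Erythroid cells were those with at least 50% globin UMIs. UMIs are counted molecules, and shares carry counting error besides the spread between embryos.

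The members and gene lists were chosen with earlier results of these data known. Named genes were the NuRD subunits, up to 4 called genes of each list by size of the KO change, the 10 largest increases and decreases in KO vs WT and 5 in Het vs WT (called, embryos not overlapping, at least 20 CPM in the higher group), and the 5 largest differences of effect each way (called, at least 20 CPM in the settled neurons of the higher group). Genes of the rule, sex-linked, globin, rDNA, mitochondrial and clone-named genes were passed over in this naming, but not in the counts of called genes. Doublets were not removed in the main analysis. An alternative removed the cells with the highest Scrublet scores (scanpy 1.11.5), 0.8% per 1000 barcodes, because the caller's own threshold marked as little as 0.0341% of a library. The tests were checked on simulated counts with 200 changed genes. Values of some genes and shares that were computed are not reported here. Alternatives included DESeq2 1.42.0, other filters and rules, the prefix as a covariate and leaving out each embryo.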

Additional observations from a re-analysis of the deposited data

Results flagged for a closer look

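Of 108 measures, each taken in the same 4 Het embryos, 5 had 1 embryo far from the other 3, where chance alone flags about 1 in 20. The measures share their embryos and are not independent. Het replicate 4 stood high for Sox5 (156 CPM), Neurod1 (103 CPM), Gpc2 (19.1 CPM) and the share of settled neurons with Bcl11b (43.9%). Het replicate 1 stood high for Tnr (25.1 CPM). Het replicate 4 is the Het library that carries the prefix of the WT libraries, and the part of the prefix in these values was not tested.

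The KO vs WT effect differed between settled neurons and Unc5d-high cells for 783 genes by the interaction term. Of the named genes, Fxyd7 (3.22), C1ql3 (2.87), Slc1a2 (2.24), Plppr4 (2.22) and Cntnap2 (2.098) had log2 effects that were more positive in the settled neurons. Npy (-2.44), Lrrc4c (-2.103), Tenm3 (-1.54), Cxxc4 (-1.41) and Trpc4 (-1.36) had more negative ones.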

How the results depend on the processing

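KO values rest on 156 to 168 cells an embryo, and with 3 embryos a group no exact test can pass. Which genes were called in KO vs WT depended on the choice of cells. The rule after thinning called 2197 genes, of which 1241 were among the 2012 of the main fit. With at least 5 of 6 genes 1230 of 1559 were shared, and at no more than 5% mitochondrial UMIs 1377 of 1625. More were shared without Itpr1 in the rule (1729), with doublets removed (1932) and at 3000 UMIs (2000). Called genes in KO vs WT numbered 417 with the prefix as a covariate, and 1317 to 2166 with 1 embryo left out (fewest without WT replicate 1). In Het vs WT (90 in the main fit) they numbered 175 with DESeq2, 209 with at least 5 of 6 genes, 57 at no more than 5% mitochondrial UMIs, 13 with the prefix, 293 without the filter on low counts, 324 with the rule after thinning and 14 to 567 with 1 embryo left out (fewest without WT replicate 3, most without Het replicate 4). KO vs Het gave 176 at 5% mitochondrial UMIs, 704 without the filter and 179 to 549 with 1 embryo left out (fewest without KO replicate 3). The difference of effects gave 429.00 with at least 5 of 6 genes, 1570 without the filter and 417 to 770 (fewest without KO replicate 3). The thinned rule for KO vs Het was chosen after seeing the data.

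Replicate numbers did not pair the embryos: 2 of 9 same-numbered pairs correlated over 0.1 (-0.63 to 0.48) and 2 of 10 samples matched their own number best. With a replicate block, KO vs WT gave 2139 genes, Het vs WT 560 and KO vs Het 521.

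The KO minus WT share of settled neurons, -7.95 points, was -9.31 at 3000 UMIs, -9.16 at 5% mitochondrial UMIs, -5.53 with 5 of 6 genes, -10.1 after thinning and -41.7 of both states together. Het minus WT, -3.07, was -4.66 at 5% mitochondrial UMIs, -5.16 after thinning and -12.3 of both states. KO minus Het, -5.55, was -4.78 at 5% mitochondrial UMIs, -6.23 without Itpr1, -3.83 with 5 of 6 genes and -30.4 of both states. The Lmo4 share of Het against WT turned to 0.0571 points without thinning.

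Of the log2 changes of named genes over all settings, 2356 stayed on the same side of the threshold, 256 lost and 17 gained a call, and 19 changed sign in KO vs WT. With 5 of 6 genes these were Pcdh11x (-0.22), Hist1h1b (-0.16) and Mta1 (0.0391). With the prefix they were Nfia (-0.0737), Gria2 (0.00476), Gpc2 (0.0225), Fos (-0.23), Chd3 (0.20), Mta2 (0.0758) and Cdk2ap1 (-0.00026). After thinning they were Hist1h1b (-0.59), Chd5 (-0.15), Mta1 (0.12), Mta3 (0.0420), Fxyd7 (-0.23) and Slc1a2 (-0.0242). With 1 embryo left out, Mbd2 ranged from -0.00148 (without KO replicate 3) to 0.263 and Mta1 from -0.127 to 0.0661 (above 0 without KO replicate 3 or WT replicate 1). The causes were not tested.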

Other observations

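Genes that tell the settled neurons from the Unc5d-high cells were taken from the Het embryos, 100 for each state by fold, after the data had been seen, and followed in KO vs WT. Of the 100 higher in Unc5d-high cells, 35 were called higher and 3 lower in KO settled neurons, beside 8.03% and 7.64% of all genes, with a median log2 change of 0.46 beside -0.01 over all genes tested. The increases were led by Mki67, Hist1h1b, Tmem176b and Pclaf, genes of cycling cells among them, and the decreases were of Epha4, Sesn3 and Rai14. Of the 100 higher in settled neurons, 25 were called higher and 33 lower against the same shares of all genes, with a median of -0.07. Tnr, Tenm3, Dtx4 and Cck led the decreases, and Fam19a1, Cdh13, Fn1 and Oma1 the increases. The rule itself limits both states, so these counts are a description.

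Cells that met the rule but held a UMI of Inhba were 5.68% ± 0.193 (SD, n = 3) of the kept cells in WT, 5.16% ± 0.239 (n = 4) in Het and 3.26% ± 0.191 (n = 3) in KO. Those that held Fezf2 instead, a factor of subcerebral neurons, were 4.56% ± 0.847, 4.68% ± 0.612 and 5.29% ± 0.821. The 3 genotypes overlapped for the Fezf2 cells, whereas KO lay below WT and Het for the Inhba cells.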
